A study of Mus musculus with 12 samples.

Results

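The complement genes examined here were *C1qa*, *C1qb*, *C1qc*, *C1ra*, *C1s1*, *C3*, *C4b*, *Cfp* and *Serping1*, 9 of the 33641 gene symbols in a table of transcript abundances from mouse myocardium. They were taken by symbol, their 22 transcript rows were summed to genes, and all 9 were among the 13158 genes that reached 1 TPM in at least 3 of the 12 libraries. TPM is a length-corrected measure of each transcript's share of its library. The mice were wild-type C57BL/6 males, about 10 weeks old in the treatment protocol and about 16 weeks old in the sample labels. Each heart had a sham operation or a myocardial infarction (MI), and from 2 weeks after surgery each mouse received weekly vehicle or weekly prednisone for 6 weeks, with 3 libraries in each of the 4 groups. Prednisone, a synthetic glucocorticoid prodrug, was given intraperitoneally at 1 mg/kg at lights-on, and tissue was collected 24 hours after the last dose. The labels give the tissue as myocardium without saying whether scar, border or remote muscle was sampled, and they describe tissue from each mouse, so each library was taken as 1 mouse.

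Complement is a cascade of plasma and tissue proteins that tags cells, debris and microbes for clearance. In the classical pathway the recognition molecule C1q, built from the A, B and C chains, binds its target and activates the serine proteases C1r and C1s, which cleave C4 and then C2 to form the convertase that cleaves C3. Properdin (*Cfp*) stabilizes the alternative pathway convertase, and C1 inhibitor (*Serping1*) blocks C1r and C1s. Outside the liver, tissue macrophages are known as a main source of C1q, and fibroblasts and other stromal cells as sources of C1r, C1s, C3, C4 and C1 inhibitor.

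Heart muscle genes were present in all 12 libraries. The summed TPM of 8 cardiomyocyte markers (*Myh6*, *Tnnt2*, *Myl2* and others) lay between 22965 and 38327, and none of them was at 0 in any library. The sum was 22965 to 28736 in MI vehicle, below all libraries of the other groups. It was 32258 to 34062 in sham vehicle, 33232 to 38327 in sham prednisone and 33057 to 35778 in MI prednisone. Some libraries stood apart. In MI vehicle replicate 3, 14307 genes reached 1 TPM, against 11690 to 12772 in the other libraries. Its median gene stood 0.74 higher than the sham vehicle mean on the log2 scale, against -0.07 to 0.25 elsewhere. Mitochondrially encoded transcripts took 23.1% of that library and 24.6% and 21.6% of MI prednisone replicates 1 and 2, against 32.4% to 42.0% in the other 9. Because TPM values are shares and the read depth is unknown, such shifts can move every gene, so the counts of called members below are set beside the share of all tested genes called in the same fit.

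Infarction in vehicle-treated mice was accompanied by higher levels of every one of the 9 genes, from recognition molecule to inhibitor. All 9 were called higher in MI than in sham, a call being an adjusted p under 0.05 in limma, where 15.1% of all tested genes were called higher. The median log2 change of the 9 was 1.22, against 0.39 for all genes. In 8 of the 9 the 3 MI values lay above the 3 sham values, as they did in 40.8% of all genes. Each p, with 3 mice a group, rests only on the spread between mice within the 4 groups. limma pooled that spread over all 12 libraries and moderated it across genes.

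The C1q chains rose by similar amounts. *C1qa* (chr4:136895917-136898803, GRCm38), the A chain, measured 62.8, 66.5 and 53.1 TPM in the sham vehicle libraries and 95.3, 150.5 and 152.2 TPM in the MI vehicle libraries. Every MI value was above every sham value, and the log2 change, on the scale log2(TPM + 1) used throughout, was 1.09 (SE 0.25, adjusted p = 0.0222 by limma). *C1qb* (chr4:136880129-136886187) averaged 51.7 ± 5.05 TPM in sham and 116.8 ± 25.7 TPM in MI (SD, n = 3 each), and its log2 change was 1.14 (SE 0.23, adjusted p = 0.0140 by limma). *C1qc* (chr4:136889804-136893065) averaged 45.2 ± 4.45 and 103.5 ± 23.0 TPM, and its log2 change was 1.16 (SE 0.20, adjusted p = 0.0102 by limma). Replicate 1 was the lowest of the MI vehicle libraries for each of the chains.

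The proteases that C1q activates rose as well. *C1s1* (chr6:124530345-124542359), which encodes C1s, measured 19.5, 24.6 and 13.6 TPM in sham vehicle and 54.0, 39.2 and 64.7 TPM in MI vehicle. The groups did not overlap, and the log2 change was 1.41 (SE 0.23, adjusted p = 0.0082 by limma). Its neighbour *C1ra* (chr6:124512405-124523443), which encodes C1r, averaged 12.4 ± 2.80 TPM in sham and 31.1 ± 9.40 TPM in MI, and its log2 change was 1.23 (SE 0.28, adjusted p = 0.0198 by limma). The near-identical gene copies *C1rb* and *C1s2* were at 0.11 TPM or less in every library, although reads of such copies can be divided between them in counting.

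The central components varied widely between the infarcted hearts. *C3* (chr17:57203970-57228136) encodes the protein from which an opsonin and the anaphylatoxin C3a are cut in all pathways. It measured 82.3, 103.5 and 50.3 TPM in sham vehicle and 325.7, 102.9 and 290.2 TPM in MI vehicle. MI vehicle replicate 2 fell within the sham range, so *C3* is the member whose groups overlapped, with a log2 change of 1.49 (SE 0.39, adjusted p = 0.0309 by limma). *C4b* (chr17:34728380-34743882), the C4 gene, measured 13.3, 17.01 and 7.19 TPM in sham vehicle and 69.3, 27.0 and 58.0 TPM in MI vehicle. Its log2 change was the largest of the 9, at 1.93 (SE 0.43, adjusted p = 0.0190 by limma), and replicate 2 was again the lowest MI library. *C4a*, a near-identical copy, was not among the gene symbols of the deposited data and so has no values here. Whether its reads were counted to *C4b* is not known.

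Both regulators rose as well. *Serping1* (chr2:84765387-84775444), C1 inhibitor, measured 74.1, 88.7 and 60.2 TPM in sham vehicle and 172.5, 152.3 and 193.6 TPM in MI vehicle. The groups lay well apart, and its adjusted p was the smallest of the 9, with a log2 change of 1.22 (SE 0.18, adjusted p = 0.0062 by limma). *Cfp* (chrX:20925454-20931555), properdin, was the least abundant member, at 5.87 ± 1.61 TPM in sham vehicle and 15.9 ± 8.54 TPM in MI vehicle. Its log2 change of 1.21 (SE 0.36, adjusted p = 0.0442 by limma) had the largest adjusted p of the 9, and was called in 3 of the 12 fits that left out 1 library; MI vehicle replicate 3 held 25.6 TPM against 12.03 and 9.91 TPM in the other MI libraries.

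**Figure D1:**
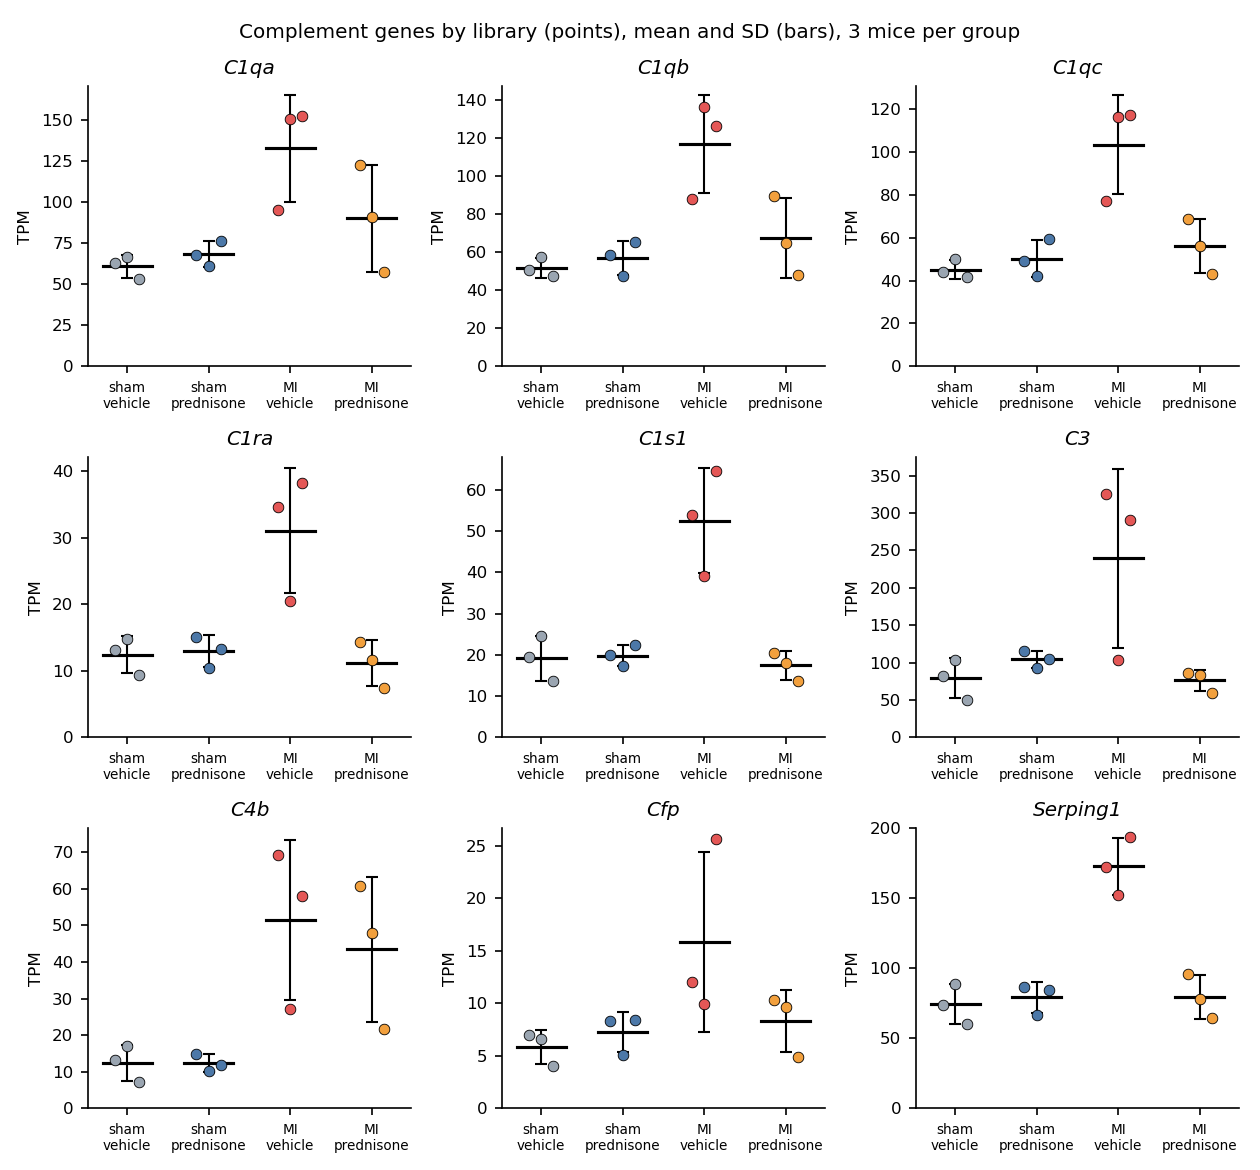
TPM (y axis, linear, from 0) of each complement gene in each library (points), with the mean (long bar) and SD (whiskers) of the 3 libraries of each group. MI vehicle has the highest mean for all 9 genes, and the *C4b* mean of 43.4 TPM in MI prednisone stands near that of 51.4 TPM in MI vehicle.

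These calls depended on the fit. Fitting only the 6 libraries compared called none of the 9 and 0.0152% of all genes, with limma adjusted p from 0.0684 to 0.155 for the 9. All 9 had an unadjusted p under 0.05 in that fit, for which the share of all genes was not counted. In the fit of all 12 libraries, which called more genes, that share was 42.2%. Median-ratio rescaling, which removes the shift of the median gene, left *C1qc*, *C1s1* and *Serping1* called, where 3.72% of all genes were called higher and as many lower. All 9 stayed above 0 after rescaling, with a median log2 change of 0.81 against 0.02 for all genes. Only *C1s1* and *Serping1* kept the call in all 12 fits that left out 1 library. The number called was 2 without sham vehicle replicate 1 (1.22% of all genes called higher) or replicate 3 (0.889%). Without MI vehicle replicate 3 it was 4, where 6.95% of all genes were called higher.

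In infarcted hearts, weekly prednisone was accompanied by lower levels of most of these genes. Relative to MI vehicle, *C1qb*, *C1qc*, *C1ra*, *C1s1*, *C3* and *Serping1* were called lower by limma, 6 of 9, where 34.9% of all tested genes were called lower. The median log2 change of the 9 was -0.87, against -0.41 for all genes. The groups did not overlap for *C1qc*, *C1ra*, *C1s1*, *C3* and *Serping1*, as in 42.6% of all genes. This comparison shares its 3 MI vehicle libraries with the one above.

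The proteases were among the called genes with the largest changes. *C1s1* measured 20.5, 18.0 and 13.7 TPM with prednisone, within or near its sham vehicle range and below all 3 MI vehicle values, and its log2 change was -1.53 (SE 0.23, adjusted p = 0.0015 by limma). *C1ra* measured 14.3, 11.6 and 7.42 TPM, with a log2 change of -1.40 (SE 0.28, adjusted p = 0.0039 by limma). The inhibitor of these proteases was called lower too. *Serping1* measured 96.0, 78.4 and 64.2 TPM, and its log2 change was -1.12 (SE 0.18, adjusted p = 0.0017 by limma). Its mean of 79.6 ± 15.9 TPM stood beside 79.4 ± 11.1 TPM in sham prednisone.

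*C3* measured 85.5, 83.4 and 59.3 TPM with prednisone after MI. All 3 values were below the lowest MI vehicle value of 102.9 TPM, and the log2 change was -1.50 (SE 0.39, adjusted p = 0.0125 by limma). *C4b*, the other central component, was not called. Its gene total was 60.7, 48.0 and 21.7 TPM, overlapping MI vehicle, with a log2 change of -0.25 (SE 0.43, adjusted p = 0.654 by limma). The transcripts behind that total are described below.

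The C1q chains had smaller log2 changes than the proteases, a difference that was not tested, and ranged widely between mice. *C1qb* measured 89.3, 65.0 and 47.9 TPM with prednisone, and *C1qc* measured 68.5, 56.0 and 43.3 TPM. Replicate 1 of *C1qb* overlapped the lowest MI vehicle value, whereas all 3 *C1qc* values were below MI vehicle. The log2 change was -0.80 for *C1qb* (SE 0.23, adjusted p = 0.0181 by limma) and -0.87 for *C1qc* (SE 0.20, adjusted p = 0.0079 by limma). *C1qa* measured 122.5, 90.7 and 57.3 TPM, and its log2 change of -0.59 (limma adjusted p = 0.0880, 95% interval -1.14 to -0.03) did not pass. *Cfp* did not pass either, at -0.80 (limma adjusted p = 0.0957, 95% interval -1.59 to -0.02). MI prednisone replicate 1 was the highest and replicate 3 the lowest of its group for all 9 genes.

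**Figure D2:**
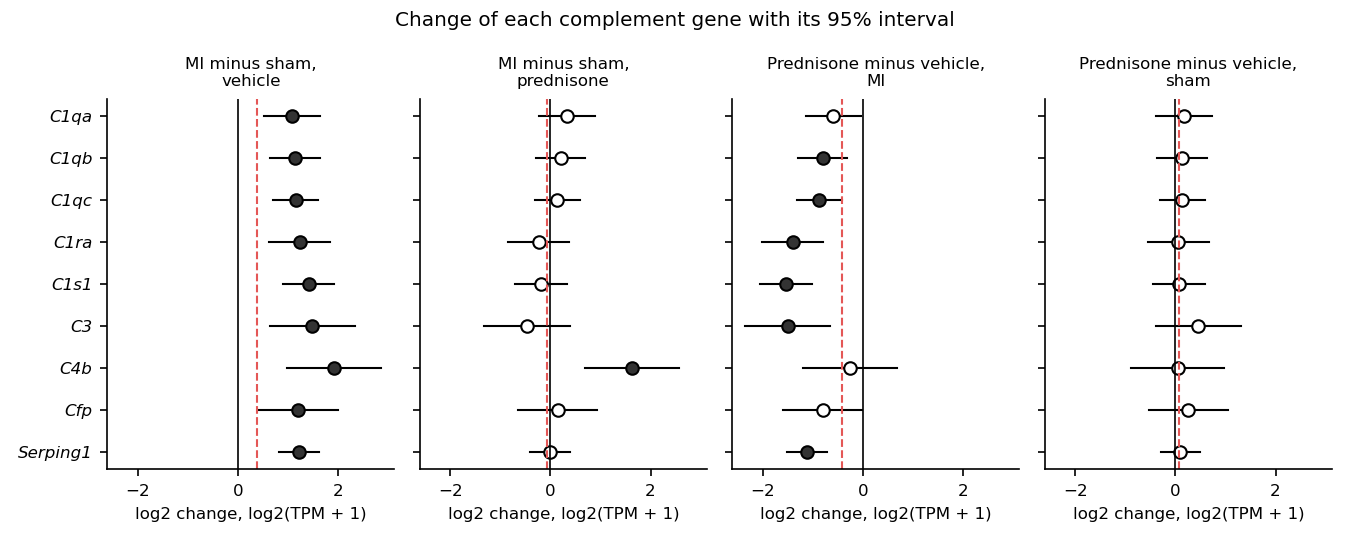
log2 change (x axis, scale log2(TPM + 1)) of each complement gene in 4 comparisons, with its 95% interval (horizontal line). Filled points passed an adjusted p of 0.05 in limma, open points did not, and the dashed line is the median of all 13158 genes; the MI against sham changes of 1.09 to 1.93 in vehicle lie to the right of that line and the prednisone panel in sham holds no filled point.

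The calls for *C1qc*, *C1ra*, *C1s1*, *C3* and *Serping1* held in all 12 fits that left out 1 library, and that of *C1qb* was lost without MI vehicle replicate 2 or 3 or MI prednisone replicate 3. *C1qa* was called without MI vehicle replicate 1 or MI prednisone replicate 1, and *Cfp* without MI vehicle replicate 2. Median-ratio rescaling left *C1ra*, *C1s1* and *Serping1* called, where 14.2% of all genes were called lower and 14.6% higher, and turned *C4b* to 0.19 (not called). Fitting only the 6 libraries compared called 3 of the 9, where 5.91% of all genes were called lower. Without MI vehicle replicate 3 the number called was 5, where 28.0% were.

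Within prednisone-treated mice, 1 of the 9 genes differed between MI and sham by the test. This was *C4b*, called higher in MI by limma, where 2.73% of all genes were called higher and 14.1% lower, and the log2 changes of the other 8 lay between -0.47 (*C3*) and 0.33 (*C1qa*), against a median of -0.06 for all genes. *C4b* measured 14.98, 10.3 and 11.7 TPM in sham prednisone, all below the lowest MI prednisone value of 21.7 TPM, with a log2 change of 1.63 (SE 0.43, adjusted p = 0.0246 by limma). Groups lay apart in this direction in 12.9% of all genes. That call was lost without any one of the 3 sham prednisone libraries or without MI prednisone replicate 1 or 2, and the log2 change ranged from 1.34 to 2.06 over the 12 fits that left out 1 library. *C3* was lower in all 3 MI prednisone libraries than in sham prednisone (115.5, 93.1 and 104.8 TPM), as were 32.2% of all genes, without passing the test (log2 change -0.47, SE 0.39, limma adjusted p = 0.457).

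Prednisone in sham hearts was accompanied by no called change in any of the 9. limma called 15 of 13158 genes in this comparison (0.114%) and 469 (3.56%) had an unadjusted p under 0.05, none of them a complement gene of the 9. All 9 log2 changes were above 0, from 0.04 (*C4b*) to 0.46 (*C3*), against a median of 0.07 for all genes, and after rescaling *C1ra*, *C1s1* and *C4b* were below 0. The widest of these 95% intervals, for *C4b*, ran from -0.89 to 0.98. The difference between the prednisone changes in MI and in sham was called for *C1qc*, *C1ra*, *C1s1*, *C3* and *Serping1*, all lower in MI, and 20.7% of all genes were called lower in that test. After rescaling *C1s1* alone was called, where 4.93% of all genes were called lower. Across the 4 groups *C1ra* and *C1s1* had the same order of means, from MI prednisone through sham vehicle and sham prednisone to MI vehicle. For both, as for *C1qc* and *Serping1*, only MI vehicle was apart from its neighbour, and the other neighbouring groups overlapped.

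By the deposited TPM values, most of the *C4b* total in MI prednisone was assigned to a short transcript at the end of the gene. Transcript TPM values are estimates, since reads from bases that transcripts share can be divided between them in counting. The reads themselves were not examined. The table holds 3 transcripts of *C4b*. C4b-201, the 5379-base protein-coding transcript of 41 exons, measured 64.6, 23.6 and 55.9 TPM in MI vehicle and 13.0, 12.6 and 6.25 TPM in MI prednisone. Every prednisone value was below every MI vehicle value and inside the combined sham range of 5.64 to 15.2 TPM. Tested among 27769 transcripts, C4b-201 was higher in MI than in sham under vehicle, by 2.02 (SE 0.42, adjusted p = 0.0352 by limma), where 2.66% of transcripts were called higher. With prednisone after MI it fell by 2.02 on the log2 scale (SE 0.42, adjusted p = 0.00504 by limma), where 27.1% were called lower.

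C4b-203 moved the other way. It is a 749-base transcript of 2 exons, annotated as a retained intron with no protein, that lies in the last 886 bases of the gene (chr17:34728380-34729265). It measured 2.75, 1.90 and 0.69 TPM in MI vehicle and 46.6, 34.0 and 15.1 TPM in MI prednisone. The 3 MI prednisone libraries were above all 9 others, which did not exceed 2.75 TPM, and the transcript held 69.8% to 76.9% of the *C4b* total there against 1.19% to 13.6% elsewhere. Prednisone against vehicle after MI gave a log2 change of 3.51 (SE 0.41, adjusted p = 0.000246 by limma), where 5.92% of transcripts were called higher, and MI against sham under prednisone gave 4.17 (SE 0.41, adjusted p = 0.000107 by limma), where 6.75% were. Counting only transcripts at least 0.5 times as long as the gene's longest, a choice made after these values were seen, *C4b* was called lower with prednisone after MI (log2 change -2.02, limma adjusted p = 0.00496), and its MI change under prednisone became -0.08 (not called).

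The intron that C4b-203 keeps and C4b-201 splices out is shown because it separates the 2 transcripts (chr17:34728898-34729181, GRCm38, minus strand, GENCODE M21). Capitals mark the 284 intron bases, which begin with GT and end with AG, and the lower-case letters are the 8 exon bases on either side. Reads over this intron were not examined, so whether it was kept in any library was not tested.
C4b-203 retained intron: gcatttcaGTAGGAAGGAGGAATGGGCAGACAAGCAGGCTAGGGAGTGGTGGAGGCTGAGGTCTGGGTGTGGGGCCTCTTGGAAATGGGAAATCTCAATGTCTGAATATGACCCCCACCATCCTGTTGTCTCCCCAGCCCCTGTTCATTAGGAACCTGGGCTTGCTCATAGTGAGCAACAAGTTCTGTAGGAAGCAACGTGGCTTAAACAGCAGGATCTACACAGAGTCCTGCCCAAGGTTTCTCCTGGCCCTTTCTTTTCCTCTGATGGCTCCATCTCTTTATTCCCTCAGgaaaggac

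*C3* held a smaller version of the same split in its estimated transcript values. C3-201, the 5136-base transcript, measured 303.6, 93.4 and 266.5 TPM in MI vehicle and 72.3, 62.1 and 40.1 TPM in MI prednisone, and fell with prednisone by 1.78 on the log2 scale (SE 0.40, adjusted p = 0.00747 by limma). C3-203, a 554-base protein-coding transcript of 8 exons, was listed at 0 in the 3 sham vehicle libraries and in MI vehicle replicate 2, and measured 1.95 and 2.75 TPM in the other MI vehicle libraries. In MI prednisone it measured 13.2, 21.3 and 19.2 TPM, 15.4% to 32.4% of the *C3* total against at most 0.95% in any other library, with a log2 change of 3.06 against MI vehicle (SE 0.44, adjusted p = 0.000795 by limma). C3-202, a 662-base transcript from the middle of the gene, went from 20.1, 8.72 and 19.1 TPM to 0.13 TPM in replicate 1 and 0 in the other 2, with a log2 change of -3.94 (SE 0.64, adjusted p = 0.00144 by limma).

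The junction that C3-203 has and C3-201 lacks is shown because it separates these 2 transcripts (GRCm38, minus strand, GENCODE M21). It joins the exon at chr17:57226831-57226882 to the one at chr17:57209589-57209642 and leaves out 28 of the 41 exons of C3-201. Capitals mark the first 30 bases after the junction, and the run of 60 bases is absent from C3-201. Reads across this junction were not examined, so whether it was used in any library was not tested.
C3-203 junction: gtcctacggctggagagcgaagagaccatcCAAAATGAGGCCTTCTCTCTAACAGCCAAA

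**Figure D3:**
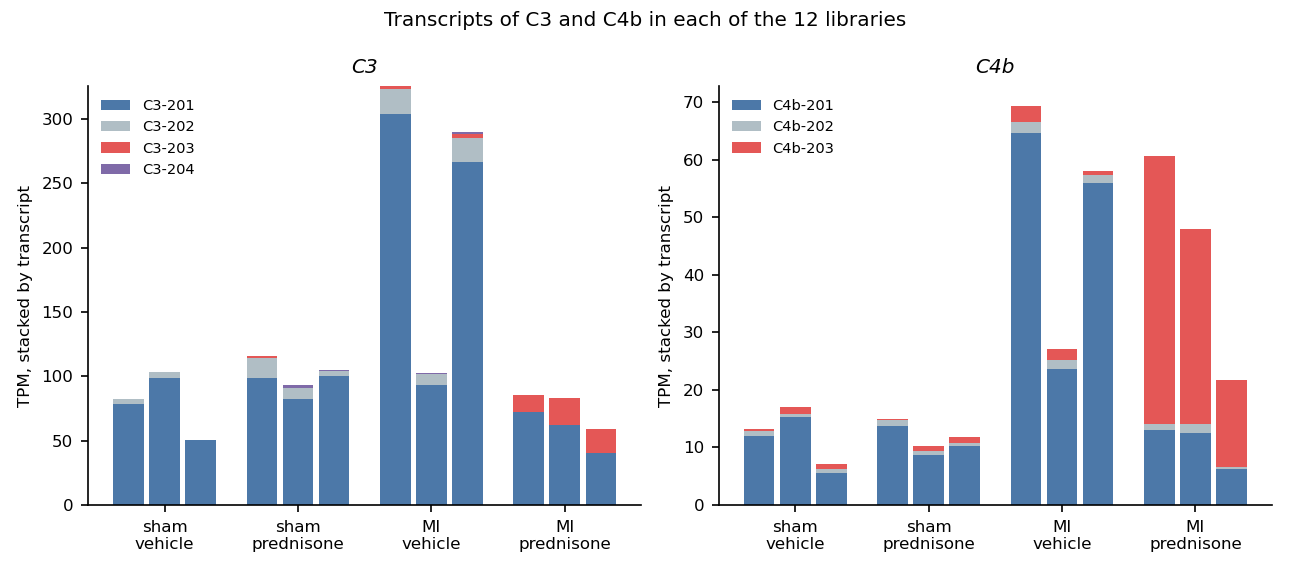
TPM of the transcripts of *C3* (left) and *C4b* (right) stacked in each of the 12 libraries (bars, 3 per group in replicate order, y axes linear from 0). C4b-203 (red, right) fills 69.8% to 76.9% of the 3 MI prednisone bars and C3-203 (red, left) 15.4% to 32.4% of them, while the full-length transcripts C4b-201 and C3-201 (blue) are lowest or near the sham level there.

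Among the other members with several transcripts, those called moved one way. For *Serping1*, the main transcript Serping1-201 fell with prednisone after MI by 1.04 on the log2 scale (SE 0.19, adjusted p = 0.00235 by limma). Serping1-203, a 903-base transcript near the 5′ end, went from 14.2, 9.22 and 12.2 TPM in MI vehicle to 1.49, 1.20 and 1.44 TPM in MI prednisone (log2 change -2.42, SE 0.21, limma adjusted p = 5.81e-05), below all 3 sham prednisone values of 5.15, 6.10 and 6.18 TPM. All 4 tested transcripts of *C1s1* were called lower, from -1.28 to -1.84. For *Cfp*, Cfp-201 was called lower (-0.97, adjusted p = 0.0480 by limma) and the 401-base Cfp-202, near the 3′ end, was at 0.60 (not called).

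Transcript calls in opposite directions were not confined to complement. Of 6570 genes with at least 2 tested transcripts, 827 (12.6%) had calls both ways in MI prednisone against MI vehicle, and 2 of the 5 complement members with as many, *C3* and *C4b*, were among them. In MI against sham under vehicle 1 of the 6570 genes did. Transcripts annotated as retained introns were called higher in 16.3% and lower in 9.49% of 2983 cases with prednisone after MI, against 3.68% and 32.4% of 18137 protein-coding ones. The mitochondrial share, low in MI prednisone replicates 1 and 2, was 35.9% in replicate 3, and the C4b-203 share of *C4b* was 69.8% to 76.9% in all 3. The part of these library-wide shifts in the *C3* and *C4b* transcript values was not tested.

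**Figure D4:**
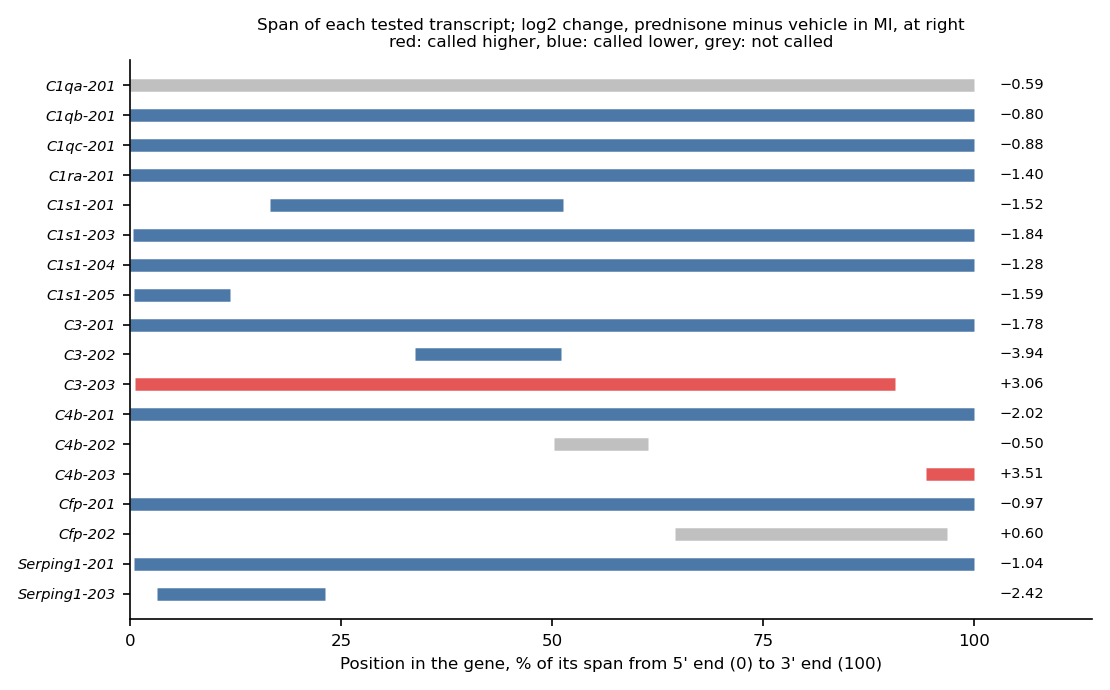
Span of each tested complement transcript within its gene (x axis, percent of the gene's length from the 5′ end at 0 to the 3′ end at 100, introns and skipped exons included), coloured by the limma call for prednisone against vehicle after MI, with the log2 change at the right. The 2 red bars are C4b-203 (3.51), at the 3′ end, and C3-203 (3.06), whose bar spans most of the gene because it joins distant exons.

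The C1q chains kept similar proportions in all 12 libraries. The ratio of *C1qc* to *C1qb* TPM ranged from 0.77 to 0.93 (mean 0.87 ± 0.04, SD over 12 libraries) and that of *C1qa* to *C1qb* from 1.09 to 1.40, with MI prednisone replicates 1 and 2 at 1.37 and 1.40 and no other library above 1.29, while the *C1qb* level itself ranged from 47.2 to 136.4 TPM. The ratio of *C1s1* to *C1ra* ranged from 1.32 to 1.92. Recognition and protease genes varied more against each other: *C1qb* to *C1ra* was 2.53, 6.68 and 3.31 in the 3 MI vehicle libraries, since replicate 2 was the highest for *C1qb* and the lowest for *C1ra*. In MI prednisone that ratio was 6.24, 5.60 and 6.45, above the 6 sham values of 3.86 to 5.06.

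Over the 12 libraries the Pearson correlation of log2(TPM + 1) was 0.99 between *C1qb* and *C1qc*, 0.98 between *C1ra* and *C1s1*, and 0.57 between *C1qa* and *C3*, the lowest of the 36 pairs. After median-ratio rescaling the median of the 36 went from 0.84 to 0.69 and that lowest pair to 0.25. These are descriptions over libraries that share groups and library-wide shifts. Among the 8107 other genes whose mean reached 5 TPM, the 3 most like *C1qa* were *Tyrobp*, the myeloid signalling adaptor, *Cst3* and *Crip1* (r = 0.97 to 0.98), and those most like *C1qb* were *Islr*, *Tyrobp* and *Olfml3* (r = 0.98 each). *Selenon*, *Gas6* and *Islr* were closest to *C1qc* (r = 0.98 each). For *C1s1* they were *Igfbp4*, a secreted binding protein for insulin-like growth factors, *Timp2* and *Tmem98* (r = 0.97 to 0.98), and for *C1ra* they were *Gas1*, *Fcna* and *Igfbp4* (r = 0.96 each). *Serping1* was closest to *Ccdc80*, an extracellular matrix protein, *Igfbp4* and *Fmod* (r = 0.98 each), *C3* to *Gas1*, *Fcna* and *Aebp1* (r = 0.93 to 0.95), *C4b* to *Cpxm1*, *Csrp2* and *Ecm1* (r = 0.92 to 0.95), and *Cfp* to *Rnase4*, *Gm2a* and *Slc9a3r1* (r = 0.97 to 0.98). After rescaling the closest gene was still *Igfbp4* for *C1s1* (r = 0.97) and *Ccdc80* for *Serping1* (r = 0.96), and became *Olfml3* for *C1qb* (r = 0.97), *Bgn* for *C1qc* (r = 0.97), *Igfbp4* for *C1ra* (r = 0.94), *Ehd2* for *C4b* (r = 0.95) and *Gm2a* for *Cfp* (r = 0.94).

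Of the 9 genes, 6 have a window before their start site in the RefSeq table used (GRCm38.p6). The one before *C1qb* is shown because the C1q chains moved together and the treatment acts through the glucocorticoid receptor, a transcription factor (chr4:136886201-136886450, minus strand, 250 bases before the start). Capitals mark AGAACA, at 178 bases before the start, the reverse complement of the receptor's half-site TGTTCT, and GAGGAA, at 30 bases before it, the core letters bound by the myeloid factor PU.1. The 2 motifs were searched on both strands, can share 1 base and do not overlap in this window. Of 32851 windows of that length 16.1% hold TGTTCT and 23.3% hold GAGGAA, so neither match is rare. The *C1qc* window also holds both, the *C1s1* windows hold TGTTCT only, and the *C1ra*, *C3* and *Cfp* windows hold neither set of letters.
C1qb upstream: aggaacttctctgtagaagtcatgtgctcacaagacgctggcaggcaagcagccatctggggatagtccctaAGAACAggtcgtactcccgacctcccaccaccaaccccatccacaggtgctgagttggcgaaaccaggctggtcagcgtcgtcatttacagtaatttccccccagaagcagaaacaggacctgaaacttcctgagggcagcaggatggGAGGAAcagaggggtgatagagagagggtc

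Other complement genes, where called, went the same way as the 9 except for *Vtn* with prednisone after MI. Of 46 further genes listed, 22 passed the filter on low values. In MI against sham under vehicle 10 of the 22 were called higher (15.1% of all genes were) and none lower, with a median log2 change of 0.76. After rescaling 4 were called higher (3.72% of all genes), and without MI vehicle replicate 3 it was 6 (6.95%). Fitting only the groups compared called 0 of the 22 (0.0152%). A correction for transcript length called 3 of the 19 it covered higher (2.64%). With prednisone after MI 11 were called lower (34.9% of all genes were) and 1 higher (2.5% were), with a median of -0.59. After rescaling 6 were called lower (14.2% of all genes), and without MI vehicle replicate 3 it was 9 (28.0%). Fitting only the groups compared called 3 lower (5.91%). With the length correction 5 of 19 were called lower (7.69%) and 2 higher (8.75%). Under prednisone, MI against sham called 1 higher (*Vtn*) and none lower, where 2.73% of all genes were called higher and 14.1% lower. The median of the 22 was -0.02.

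Among the regulators, those on the membrane differed: *Cd55*, which speeds the decay of convertases, was called both ways (1.10 with MI, -0.81 with prednisone), *Cr1l* likewise (0.48 and -0.61), and *Cd59a*, which blocks the membrane attack complex, gave -0.04 and 0.00 (neither called, and -0.47 with MI after rescaling), between 43.8 and 45.3 TPM in the 4 group means. *Clu*, clusterin, an inhibitor of that complex, was called at 0.74 and -0.42. *Vtn*, vitronectin, another such inhibitor, was the one of the 22 called higher with prednisone after MI. It measured 11.5, 10.2 and 11.3 TPM in MI vehicle and 17.9, 14.7 and 16.5 TPM in MI prednisone, without overlap, and its log2 change was 0.53 (SE 0.12, adjusted p = 0.00618 by limma).

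Of the receptors for complement fragments, *Itgam*, *Itgb2*, *C5ar1* and *Vsig4* were called in both comparisons, *C3ar1* in 1 and *Cr2* in neither. *Itgam* and *Itgb2*, the chains of complement receptor 3, were called higher with MI (1.13 and 1.75) and lower with prednisone after MI (-1.29 and -1.53). *Itgam* measured 5.60, 6.59 and 6.04 TPM in MI vehicle and 2.53, 1.80 and 1.43 TPM in MI prednisone, without overlap, whereas the *Itgb2* mean of 17.6 TPM in MI vehicle rested on replicate 3 at 35.5 TPM beside 7.71 and 9.42 TPM. *C5ar1*, the C5a receptor, gave 0.78 and -0.99, both called, and *C3ar1*, the C3a receptor, gave 0.59 (limma adjusted p = 0.0595) and -0.56 (limma adjusted p = 0.0445). *Vsig4*, a macrophage receptor for C3 fragments, was called at 1.40 and -1.12. *Cr2*, complement receptor 2, named after its values were seen, gave 1.20 and -1.01.

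Other pathway components were less uniform. *C7*, a membrane attack complex component, was called at 1.31 and -1.41, and *Fcna*, a ficolin that starts the lectin pathway, at 1.71 and -1.91. *Cfb*, the alternative pathway protease, gave 1.45 (limma adjusted p = 0.0631) and -0.99 (limma adjusted p = 0.132), and *C2* gave 0.78 and -1.19 (neither called). *Cfd*, adipsin, which is made by adipocytes, ranged from 10.8 to 1067 TPM over the 12 libraries and gave 1.29 with MI (SE 1.45, not called). Its MI vehicle values of 463.0, 12.2 and 1067 TPM follow the order of the summed TPM of 6 adipocyte markers in the same libraries, at 246.8, 29.9 and 550.5.

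**Figure D5:**
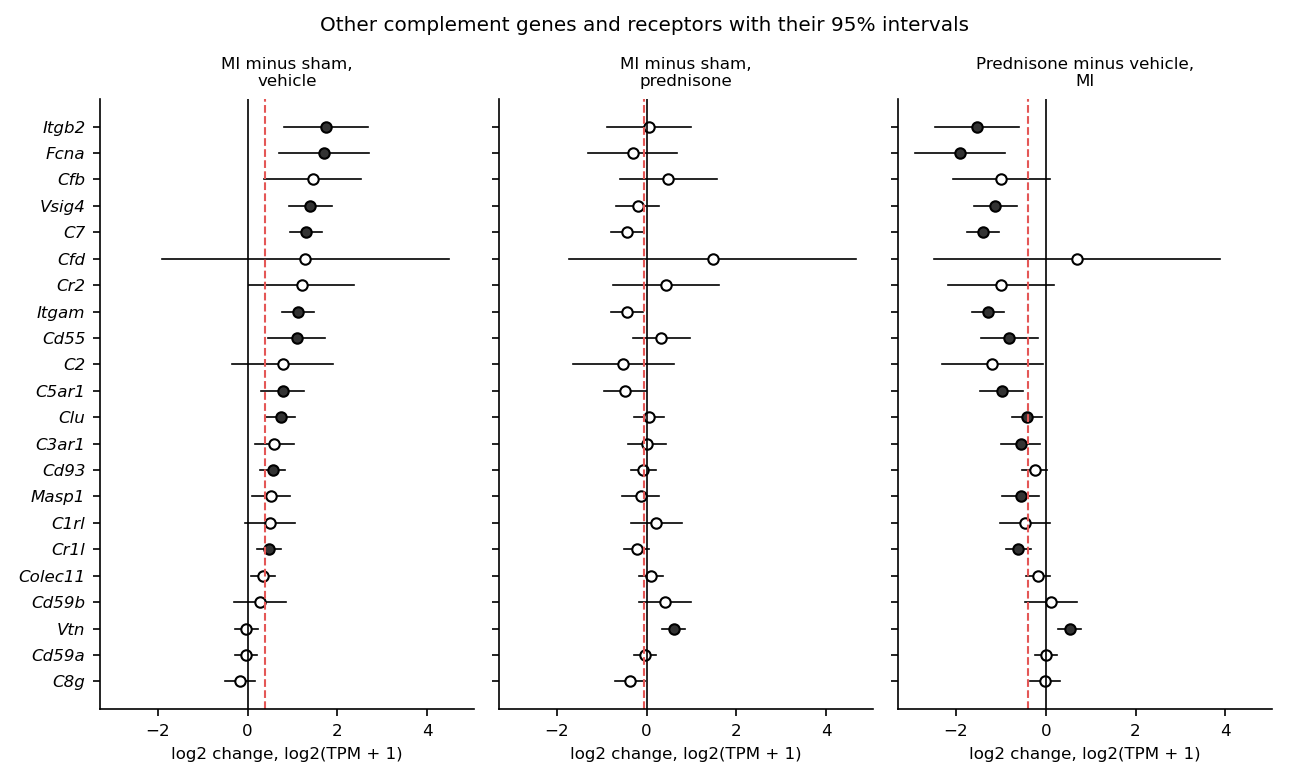
log2 change (x axis, scale log2(TPM + 1)) with its 95% interval (line) for the 22 other complement genes and receptors that passed the filter, in 3 comparisons, ordered by the first. Filled points passed an adjusted p of 0.05 in limma, open points did not, and the dashed line is the median of all 13158 genes; *Vtn* is filled to the right of 0 in the middle and right panels (0.61 and 0.53).

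Markers of macrophages and fibroblasts, cells known to make these proteins, moved in the same comparisons. Of 12 macrophage markers (among them *Csf1r*, *Cd68*, *Lyz2* and *Mrc1*), 8 were called higher with MI under vehicle (15.1% of all genes were) and 8 lower with prednisone after MI (34.9% of all genes were), and their summed TPM was 207.3 to 310.3 in sham vehicle, 238.9 to 321.2 in sham prednisone, 498.3 to 1230 in MI vehicle and 234.5 to 438.8 in MI prednisone. Of 10 fibroblast markers (among them *Pdgfra*, *Dcn*, *Col1a1* and *Postn*), 9 were called higher and 7 lower in those comparisons, with sums of 961.6 to 1248 TPM in sham vehicle, 1044 to 1254 in sham prednisone, 1835 to 2117 in MI vehicle and 841.3 to 1397 in MI prednisone. No marker of either list was at 0 in any library. Of 8 endothelial markers, 5 were called higher with MI, and 3 lower and 1 higher with prednisone after MI, with sums of 796.9 to 1019 TPM in sham vehicle, 799.1 to 961.6 in sham prednisone, 985.5 to 1868 in MI vehicle and 1016 to 1978 in MI prednisone. Of 8 tested monocyte and neutrophil markers 2 were called higher and 1 lower in those comparisons, with sums of 9.61 to 29.6 TPM in sham vehicle, 18.8 to 28.2 in sham prednisone, 29.0 to 121.8 in MI vehicle and 37.2 to 42.2 in MI prednisone. None of 6 lymphocyte markers was called in either, and they summed to 8.73 to 212.2 TPM in MI vehicle, the highest being replicate 3, against 2.27 to 16.0 TPM in the other groups. Of the 8 cardiomyocyte markers, 2 were called lower with MI under vehicle (0.904% of all genes were) and none higher. With prednisone after MI 3 of them were called higher (2.5% of all genes were) and none lower. In bulk tissue fewer cells of a type and less RNA per cell cannot be told apart, and the part of cell makeup in the complement values was not tested. The liver is the main source of plasma complement. The 7 hepatocyte markers summed to 5.16 to 24.6 TPM, the highest being MI vehicle replicate 3. *Fgb* was at 0 in 8 libraries and *Alb* at 4.7 TPM or less in all. *Ahsg* ranged from 3.77 to 11.8 TPM, and *Apoa2* and *Ttr* were above 0 in every library. The part of liver RNA in the complement values was not tested.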

How the data were processed

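The authors deposited 1 table of TPM values, 105129 transcripts by 12 libraries, scaled to the same total in each library. Per the labels' protocols, RNA was purified on columns and made into stranded mRNA libraries. Trimmomatic, HISAT2, kallisto and mm10 are named in the submitters' processing notes, while their versions, roles and the annotation release are not given in the sources used here. Read depth is unknown, so precision rests on 3 libraries per group. Rows sharing a symbol were added up, the sums reaching 1 TPM in at least 3 libraries were kept, and limma 3.58.1 (R 4.3.3, empirical Bayes with trend) fitted a mean per group to log2(TPM + 1) of all 12 libraries, with Benjamini-Hochberg adjustment over all 13158 genes and calls at an adjusted p under 0.05. The script was tested on simulated data. Groups came from sample titles.

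The 9 genes, the 46-gene list and the marker lists were chosen with earlier results of these data known. Named from the 46 were up to 6 called genes per comparison by size of change, and 12 fixed genes. One further listed gene is not reported here. The genes most like a member were the 3 with the highest correlation, and after rescaling the first is given. Positions and transcript types were matched by transcript identifier to GENCODE M21 (GRCm38). Alternatives were median-ratio rescaling, centring on the median gene, no filter, no trend, a pseudocount of 0.1, the most abundant transcript, the groups compared alone, a replicate block, a transcript-length correction (loess span 0.5, 11894 genes), that correction with the block, each library left out, and, added after the data were seen, long transcripts only.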

Additional observations from a re-analysis of the deposited data

Results flagged for a closer look

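For 5 of the 9 complement genes the prednisone change in infarcted hearts differed from that in sham hearts by limma's test of the difference (adjusted p under 0.05 over all 13158 genes, of which 20.7% were called lower and 0.54% higher). The difference was -1.01 for *C1qc* (SE 0.29, adjusted p = 0.0319 by limma), -1.46 for *C1ra* (SE 0.39, adjusted p = 0.0259 by limma), -1.60 for *C1s1* (SE 0.33, adjusted p = 0.0114 by limma), -1.95 for *C3* (SE 0.55, adjusted p = 0.0302 by limma) and -1.22 for *Serping1* (SE 0.26, adjusted p = 0.0117 by limma), against a median of -0.48 for all genes. The other 4 were also below 0, from -0.30 (*C4b*) to -1.06 (*Cfp*), and did not pass. The calls of *C1s1* and *Serping1* held in all 12 fits that left out 1 library, that of *C1ra* in 8, that of *C1qc* in 4 and that of *C3* in 3. After median-ratio rescaling, with a median of -0.02 for all genes, *C1s1* was the one still called (-1.07, limma adjusted p = 0.0371).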

How the results depend on the processing

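The share of all genes called in the same direction is given in parentheses, except for ranges over left-out libraries, and no cause was tested. In MI against sham under vehicle, 9 calls (15.1%) became 3 with median-ratio rescaling (3.72%), 4 with centring (3.56%), 3 with the length correction (2.64%), 1 with it and the replicate block (0.471%), and 0 with only the groups compared (0.0152%), and 2 to 9 with 1 library left out. In prednisone against vehicle after MI, 6 (34.9%) became 3 with rescaling (14.2%), 3 with only the groups compared (5.91%) and 3 with the length correction and replicate block (5.65%), and 5 to 7 with 1 library left out. For the difference of prednisone changes, 5 (20.7%) became 1 with rescaling (4.93%), 2 without a filter (7.93%), 1 with centring (4.83%), 0 with the length correction without the block (1.15%) or with it (0.513%), and 2 to 7 with 1 library left out. It was 6 with the most abundant transcript (17.8%) and with long transcripts only (23.4%). The replicate block alone gave 7 calls (7.64%) in MI against sham under vehicle and 6 (31.6%) in prednisone against vehicle after MI. In MI against sham under prednisone it gave 1 (1.76%). It gave 0 for prednisone in sham (0.0152% of all genes higher and 0.038% lower) and 4 for the difference (17.5%). No setting called a member in sham. Same-numbered libraries of different groups did not deviate together (mean r from -0.37 to 0.11), so the numbers were not taken to pair them.

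Signs changed only among values that were not called, apart from *C4b*. For *C4b*, MI against sham under prednisone became -0.076 with the most abundant transcript and with long transcripts only. Its prednisone change after MI became 0.19 with rescaling, 0.14 with centring and 0.34 with the length correction, with or without the block, and -0.65 to 0.17 with 1 library left out. Its prednisone change in sham became -0.038, -0.029 and -0.054 under those settings, and -0.28 to 0.29 with 1 library left out, and the difference became 0.23, 0.17 and 0.39, and -0.70 to 0.13. For MI against sham under prednisone, *C1qc* became -0.014 with the length correction, with or without the block, *C1s1* 0.027 with the most abundant transcript, and *Serping1* 0.10 with rescaling, 0.082 with the most abundant transcript and 0.080 with centring. With 1 library left out, it was -0.018 to 0.42 for *C1qb*, -0.013 to 0.31 for *C1qc*, -0.42 to 0.012 for *C1ra*, -0.063 to 0.44 for *Cfp* and -0.15 to 0.14 for *Serping1*. For prednisone in sham, *C1ra* became -0.023 with rescaling, -0.013 with centring and -0.020 with the length correction, with or without the block, and *C1s1* -0.012 with rescaling and -0.00017 with centring. With 1 library left out, it was -0.12 to 0.20 for *C1ra*, -0.14 to 0.26 for *C1s1* and -0.039 to 0.24 for *Serping1*.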
